A study of Mus musculus with 6 samples.

Results

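Of 10 genes named for the nuclear lamina and the LINC complex, 9 had a row in the deposited table of 22770 genes and are described here: Lmna, Lmnb1, Lmnb2, Lbr, Sun1, Sun3, Sun5, Spag4 and Dpy19l2. The members were chosen by name, with earlier results of these data known. Syne1, the gene of the outer membrane protein nesprin-1, was not analysed here. RNA was measured by Smart-seq2, which amplifies cDNA of polyadenylated RNA, in 3 libraries of mouse round spermatids of the genotype labelled Eif5a SKO and 3 labelled wild type. Cells were taken from testis by fluorescence-activated sorting on day 28 after birth, primarily at step 8, the last round stage before the nucleus elongates. Both groups share organism, tissue, cell type and age, and differ in the label of Eif5a, which encodes a translation factor. The labels do not expand SKO or name the driver of a deletion, an allele or the strain, and do not say whether libraries came from separate animals, so p-values measure the spread between libraries, which may be technical.

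The lamina is a meshwork under the inner nuclear membrane, built of A-type lamins from Lmna and B-type lamins from Lmnb1 and Lmnb2, and the receptor from Lbr ties it to heterochromatin. LINC complexes cross both membranes of the nuclear envelope: SUN proteins span the inner membrane and bind KASH proteins in the outer one, which reach the cytoskeleton. In spermatids these bridges carry force from the manchette, a sleeve of microtubules around the elongating head, and hold the acrosome and the tail to the nucleus. Germ cells make their own lamin forms from Lmna and Lmnb2 by other starts and splicing, and counts per gene do not separate those forms from the somatic ones.

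Library totals ran from 52055193 to 60970931 counts. Eif5a itself stood at 270 to 338 counts in the SKO libraries and 36162 to 41278 in wild type, the order the labels call for. Among 19776 genes tested with edgeR, 4185 were higher and 4127 lower in SKO at a Benjamini-Hochberg adjusted p under 0.05, with a median log2 fold change of 0.012. Scaling by library totals alone moved that median to -0.228 and the split to 2831 higher and 5666 lower, so every direction is relative to the scaling. SKO replicate 3 lay apart from the other SKO libraries on the second principal component, at -71.4 against 37.6 and 40.3. Round spermatid markers summed to 8060 to 9280 CPM in SKO and 6190 to 6730 CPM in wild type, so the labelled cell type was present in all 6 libraries. CPM are counts per 1000000 of the effective library size. Values are mean ± SD with n = 3 libraries, and fold changes are SKO against wild type ± SE.

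In SKO spermatids Lmna was 2.13-fold higher, Lmnb2 2.07-fold lower and Sun1 1.92-fold lower, while Spag4, Sun3 and Dpy19l2, among the most abundant members, did not pass the test. All 9 genes passed the filter on low counts. By edgeR's quasi-likelihood test 2 were called higher, which were Lmna and Sun5, and 2 lower, which were Lmnb2 and Sun1. The background over all tested genes was 21.2% called higher, 20.9% called lower and 42.0% called in either direction. The SKO and wild-type libraries did not overlap for 4 of the 9 members, against 55.6% of all tested genes. The members' counts lie near these shares and are no result about the members as a group. Their median log2 fold change was -0.01 beside 0.012 over all tested genes. In bulk libraries a change in the RNA of each cell and a change in the mix of cells cannot be told apart.

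**Figure D1:**
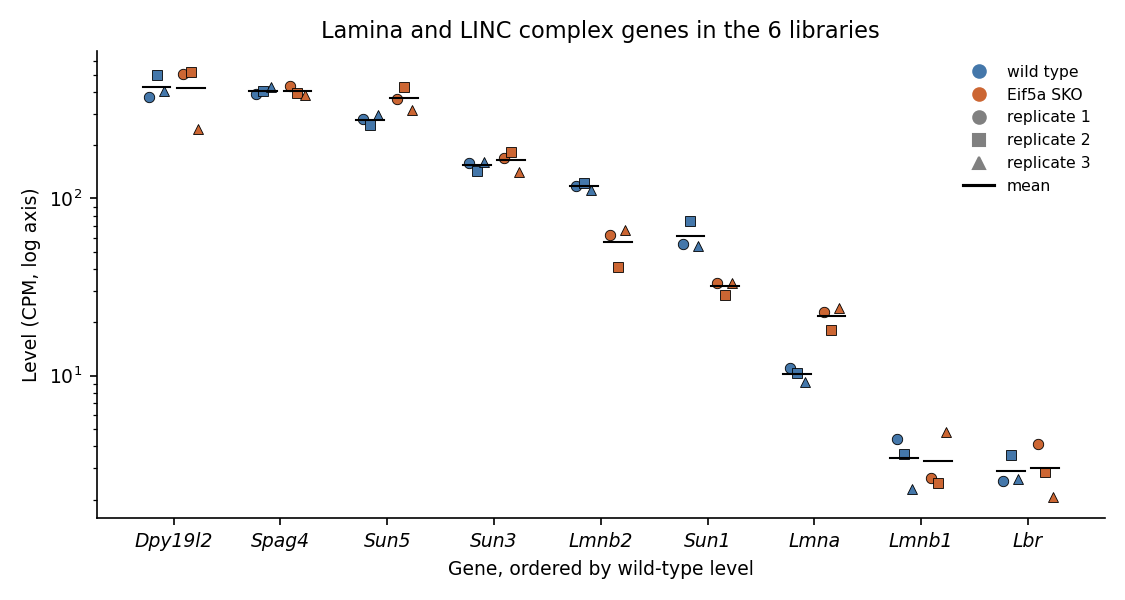
Level of each of the 9 genes in each library, in CPM on a log axis, with wild type in blue, Eif5a SKO in orange, a symbol for each replicate and a bar at the mean of 3 libraries. The groups separate for Sun5, Lmnb2, Sun1 and Lmna, and the SKO replicate 3 triangle of Dpy19l2 sits at 245.0 CPM below all other libraries.

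Promoter sequence is shown for Spag4 and Sun1, the 2 of 8 members read (Lmnb1 was not) with a match to the core of the cyclic AMP response element, and for Lmnb2, the B-type lamin gene whose level fell. CREM, a main activator of spermatid genes, binds that element. The windows are the 250 bases before an annotated start, 5′ to 3′ on the gene's strand, from RefSeq on GRCm38.p6. Capitals mark TGACG or, on the other strand, CGTCA, and the full element TGACGTCA holds both in overlap.
Spag4, chr2:156064963-156065212, plus strand: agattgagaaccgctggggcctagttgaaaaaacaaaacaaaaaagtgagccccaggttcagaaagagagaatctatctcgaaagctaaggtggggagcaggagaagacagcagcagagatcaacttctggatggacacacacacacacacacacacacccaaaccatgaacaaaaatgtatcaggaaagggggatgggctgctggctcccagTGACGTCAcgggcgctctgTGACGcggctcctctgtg
Sun1, first start, chr5:139200387-139200636, plus strand: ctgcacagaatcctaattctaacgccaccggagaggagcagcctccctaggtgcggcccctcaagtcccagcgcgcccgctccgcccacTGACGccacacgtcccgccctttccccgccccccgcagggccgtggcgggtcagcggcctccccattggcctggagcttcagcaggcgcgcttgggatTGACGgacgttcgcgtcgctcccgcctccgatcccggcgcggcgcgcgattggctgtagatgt
Lmnb2, first start, chr10:80918246-80918495, minus strand: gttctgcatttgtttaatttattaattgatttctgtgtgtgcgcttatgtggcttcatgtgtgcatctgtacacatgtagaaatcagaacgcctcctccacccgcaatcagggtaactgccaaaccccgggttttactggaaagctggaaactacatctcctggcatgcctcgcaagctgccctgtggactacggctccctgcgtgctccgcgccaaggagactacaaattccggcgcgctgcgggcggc
Spag4 held 1 full element beginning 37 bases before its RefSeq start and a further core 18 bases before it. The GENCODE M21 annotation begins Spag4 at 156065175, inside this window and ahead of both matches, so by that annotation they lie within the gene. Sun1 held cores at 161 and 63 bases before its start. The core was found in 2 of 12 windows read for 8 members (16.7%), against 17.8% of 32851 windows of the same length, and the full element in 1.55% of them. Of these promoters' genes, Spag4 did not pass the test and Sun1 and Lmnb2 fell. A match is a description of letters and not a measured site.

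Lmna, on chromosome 3 from 88480147 to 88509956 (GENCODE M21, GRCm38, minus strand), encodes lamins A and C. Its level was 22.9, 18.2 and 24.0 CPM in the SKO libraries and 11.1, 10.3 and 9.17 CPM in wild type. Each SKO library was above each wild-type library. The mean went from 10.2 ± 0.95 to 21.7 ± 3.09 CPM, a fold of 2.13, and on the log2 scale the difference was 1.09 ± 0.17 (edgeR adjusted p = 0.000861). An offset for transcript length and GC content raised the log2 fold change to 1.64 (edgeR adjusted p = 5.25e-05).

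Some markers of other testis cells were, like Lmna, higher in SKO. Sertoli cell markers, 8 of 15 listed genes used here, were 7 higher and 0 lower, and summed they gave 47.4 to 175 CPM in the SKO libraries and 3.46 to 11.8 CPM in the wild-type ones. Among them Cst12 and Cst9 were already known to be higher in these SKO libraries, so neither that count nor the sum is independent evidence. In SKO replicate 3, where the sum was 47.4 CPM, Cst12 stood at 10.45 CPM and Cst9 at 15.62 CPM. Leydig cell markers, 6 of 8 used, were 3 higher and 0 lower, at 8.02 to 44.6 CPM against 1.26 to 21.6 CPM, with Insl3 at 0 counts in wild-type replicates 1 and 2. Peritubular markers, 3 of 11 used, were 1 higher and 0 lower, at 50.0 to 68.3 CPM against 5.62 to 23.6 CPM. Most of that sum in SKO replicates 1 and 2 was Dcn (48.8 and 49.3 CPM), which was not called (edgeR adjusted p = 0.0929). Dcn stood higher in wild-type replicate 3 (19.62 CPM) than in SKO replicate 3 (16.65 CPM). For these 3 lists edgeR also called 0 lower at an unadjusted p under 0.05, as did DESeq2 and limma-voom after adjustment. Other listed markers were not used here. Macrophage and blood markers, with 6 tested, were 1 higher and 1 lower, at 16.9 to 32.4 CPM against 8.86 to 20.2 CPM. Over all tested genes 21.2% were higher and 20.9% lower, so the peritubular and macrophage counts are no result about those lists as groups. Within SKO the lists did not run together. Replicate 3, highest in Lmna, had the lowest Sertoli sum, and replicate 2, lowest in Lmna, had the lowest Leydig sum (8.02 CPM) and the lowest macrophage and blood sum (16.9 CPM). The peritubular sum was lowest in SKO replicate 3 through Dcn, while Acta2 and Myh11 were highest there. Within wild type, replicate 3 had the highest Sertoli, Leydig and peritubular sums and the lowest Lmna level. The part of these cells in the group difference of Lmna was not tested.

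**Figure D2:**
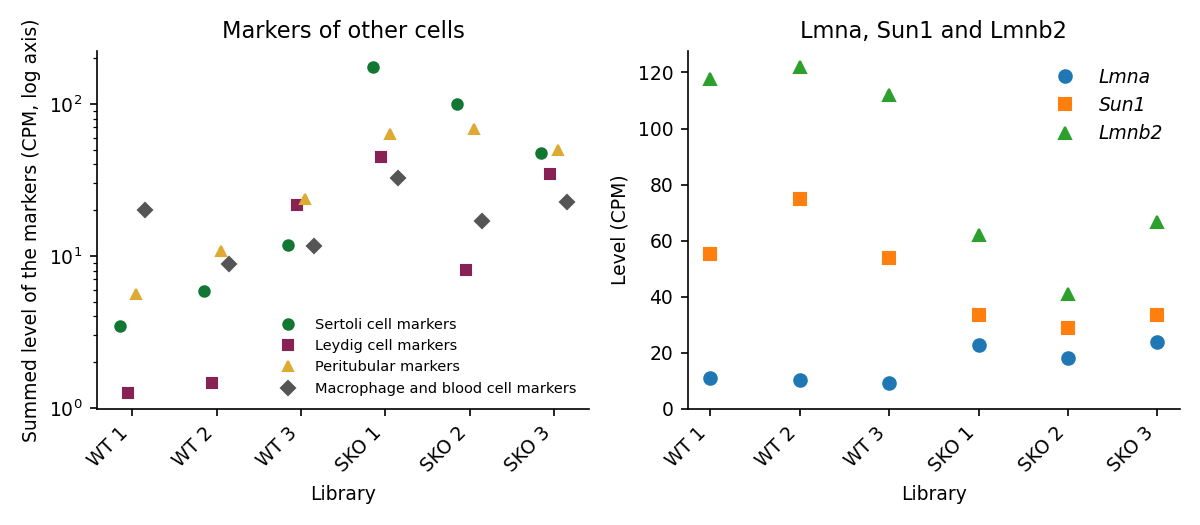
Left, summed level of the markers of 4 other cell types in each library, in CPM on a log axis; right, the levels of Lmna, Sun1 and Lmnb2 in the same libraries in CPM. Within SKO, the Sertoli sum is lowest in replicate 3 (47.4 CPM), where Lmna is highest, and the Leydig and macrophage sums are lowest in replicate 2 (8.02 and 16.9 CPM), where Lmna is lowest. The Sertoli sum includes Cst12 and Cst9, already known to be higher in SKO.

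Lmnb2, on chromosome 10 from 80901203 to 80918245, gives lamin B2 and the lamin form typical of spermatids. Its level was 62.0, 41.0 and 66.7 CPM in SKO and 117.6, 122.1 and 112.1 CPM in wild type. The highest SKO library was far below the lowest wild-type library. The log2 fold change was -1.05 ± 0.18 (edgeR adjusted p = 0.00165), a level 2.07-fold lower. With the length and GC offset it was -0.54 (edgeR adjusted p = 0.00721), smaller but still called.

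The ratio of Lmnb2 to Lmna within a library does not depend on how libraries are scaled. Per length of transcript it was 9.50, 10.6 and 10.9 in wild type and 2.42, 2.01 and 2.48 in SKO. The ratio was 4.49-fold lower in SKO, and no library of one group came near the other group. Lmna made up 8.20% to 9.14% of the summed lamin level per length in wild type and 27.0% to 31.6% in SKO. Lmnb2 made up 86.8% to 89.5% and 63.6% to 68.2%, so it stayed the main lamin gene by RNA in both groups. The exact permutation test, two-sided, gave p = 0.1 for the ratio, the smallest that 3 against 3 libraries allow. This ratio and 10 other within-family quantities were chosen after the values were seen, and adjusted over the 11 its exact permutation p was 0.122.

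Lmnb1, on chromosome 18, encodes the B-type lamin of most somatic cells and was scarce in these libraries. It stood at 2.64, 2.49 and 4.81 CPM in SKO and 4.39, 3.60 and 2.29 CPM in wild type. The groups overlapped fully, and SKO replicate 3 was the highest of all 6. Its log2 fold change was -0.05 ± 0.33 (edgeR adjusted p = 0.922) with a 95% interval of -0.80 to 0.70, which holds a fall or a rise of more than 1.5-fold. Lbr, on chromosome 1 from 181815335 to 181843046, was as scarce, at 4.13, 2.86 and 2.08 CPM in SKO and 2.56, 3.58 and 2.60 CPM in wild type. Its log2 fold change was 0.05 ± 0.30 (edgeR adjusted p = 0.902, 95% interval -0.61 to 0.72), and the groups overlapped. Lbr shares 440 exonic bases with Dnah14 on the other strand, a dynein gene that rose from 55.9 ± 4.89 to 82.5 ± 2.34 CPM, so with the strand setting not given some of its reads are uncertain.

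**Figure D3:**
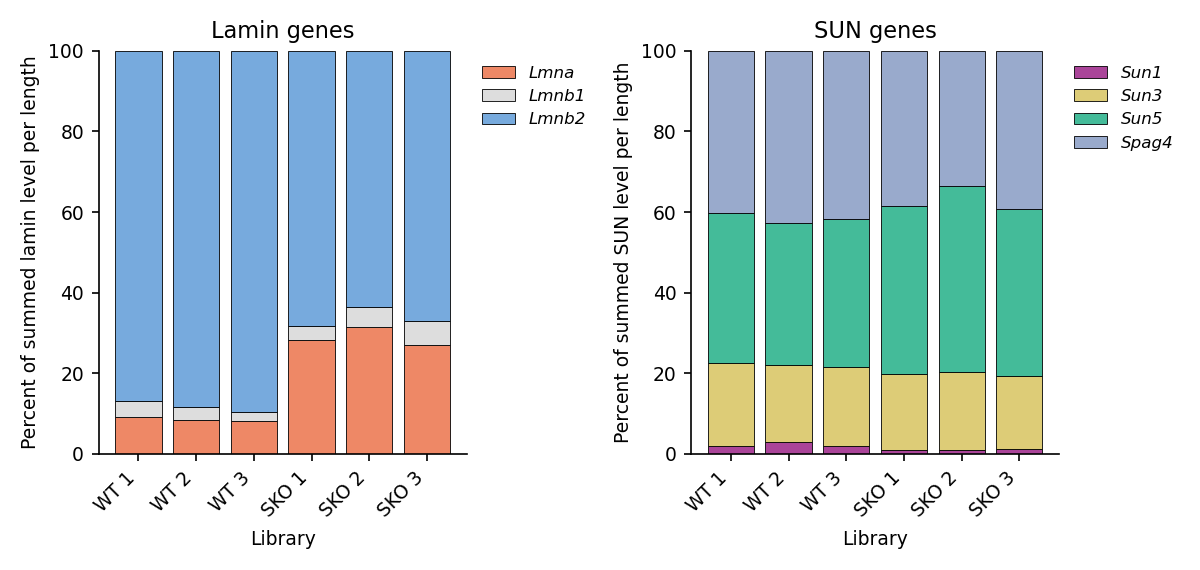
Share of each lamin gene (left) and each SUN gene (right) in the summed level per transcript length of its family, in percent, 1 bar per library. Lmna takes 8.20% to 9.14% of the lamin bar in wild type and 27.0% to 31.6% in SKO, while Sun1 is 1.88% to 2.84% of the SUN bar in wild type and 0.868% to 1.23% in SKO.

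Among SUN genes Sun1 fell, Sun5 rose by a call that did not hold under most alternatives, and Sun3 and Spag4 did not pass the test. Sun1, on chromosome 5 from 139200637 to 139249840, encodes a widely expressed SUN protein that also holds telomeres to the envelope in meiosis. It stood at 33.4, 28.7 and 33.5 CPM in SKO and 55.3, 74.9 and 53.9 CPM in wild type. Every SKO library was below every wild-type library, with the wild-type spread set by replicate 2. The log2 fold change was -0.94 ± 0.17 (edgeR adjusted p = 0.00185), 1.92-fold lower. With the length and GC offset it was -0.58 (edgeR adjusted p = 0.00666). Sun1 shares 302 exonic bases with the antisense gene 4930520M14Rik, which fell from 2.34 ± 0.08 to 0.33 ± 0.15 CPM, 132 to 147 counts in wild type beside 3245 to 4392 for Sun1.

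Sun5, on chromosome 2 from 153856188 to 153871084, encodes the SUN protein that fastens the tail to the sperm head. It stood at 366.4, 425.8 and 314.5 CPM in SKO and 281.1, 260.0 and 294.1 CPM in wild type. The groups were separate, but SKO replicate 3 lay only a little above wild-type replicate 3. The log2 fold change was 0.41 ± 0.14 (edgeR adjusted p = 0.0421), a fold of 1.33. The call ended under 9 of 16 alternatives: library totals alone (0.16, edgeR adjusted p = 0.318), the length and GC offset (0.35, 0.0743), the block of replicate numbers (0.40, 0.109), that block with the offset (0.33, 0.141), and without SKO replicate 1 (0.39, 0.0816), SKO replicate 2 (0.26, 0.178) or wild-type replicate 1, 2 or 3 (0.41, 0.36 and 0.45, with edgeR adjusted p = 0.125, 0.142 and 0.0889). Without SKO replicate 3 it was 0.48 (edgeR adjusted p = 0.0028). Autosomal coding genes of like length, 114 to 1194 bases, had a median log2 fold change of 0.59.

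Spag4, on chromosome 2 from 156065175 to 156070617, encodes SUN4, which sits at the rear of the spermatid nucleus toward the manchette. Its level was 430.4, 395.9 and 382.8 CPM in SKO and 387.1, 401.8 and 427.8 CPM in wild type. The ranges nearly coincided. The log2 fold change was -0.01 ± 0.12 (edgeR adjusted p = 0.959), and its 95% interval of -0.27 to 0.25 was the narrowest of the 9. Sun3, on chromosome 11 from 9016054 to 9048991, encodes a partner of SUN4 at the same place. It stood at 168.4, 183.2 and 141.6 CPM in SKO and 158.1, 142.8 and 160.4 CPM in wild type, and its log2 fold change was 0.10 ± 0.14 (edgeR adjusted p = 0.606, 95% interval -0.21 to 0.40). The groups overlapped, with SKO replicate 3 the lowest of all libraries. Sun3 shares 123 exonic bases with Gm11992 on the other strand, which fell by 0.76 ± 0.17 (edgeR adjusted p = 0.00553).

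Per length, Sun1 made up 1.88% to 2.84% of the summed SUN level in wild type and 0.868% to 1.23% in SKO. Sun5 made up 35.3% to 37.2% in wild type and 41.2% to 46.0% in SKO, and Spag4 40.2% to 42.8% and 33.6% to 39.4%. Sun3 had overlapping shares of 19.1% to 20.6% and 18.2% to 19.5%. All these shares use the transcript with the longest coding sequence. Over the union of annotated exons, wild-type levels were 226 CPM per kilobase for Sun5, 118 for Sun3 and 84.0 for Spag4. The SUN shares, and the overlap for Sun3, therefore depend on the transcript taken. The ratio of Sun5 to Sun3, which are of like length, was 1.81 to 1.86 in wild type and 2.21 to 2.36 in SKO. All 3 SKO values were above the wild-type values, with p = 0.1 by the two-sided exact permutation test, the smallest possible, and 0.122 adjusted over the 11 quantities.

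Dpy19l2, on chromosome 9 from 24557047 to 24696293, encodes an inner nuclear membrane protein that anchors the acrosome and whose loss gives round-headed sperm. Its level was 504.8, 517.2 and 245.0 CPM in SKO and 375.6, 496.6 and 402.4 CPM in wild type. SKO replicates 1 and 2 were the highest of the 6 libraries and SKO replicate 3 the lowest. The log2 fold change was -0.01 ± 0.26 (edgeR adjusted p = 0.982, 95% interval -0.58 to 0.56), and without SKO replicate 3 it was 0.23 (edgeR adjusted p = 0.154). Cypt4, on the other strand inside Dpy19l2, shares no exonic base with it, and it rose by 1.03 ± 0.17.

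**Figure D4:**
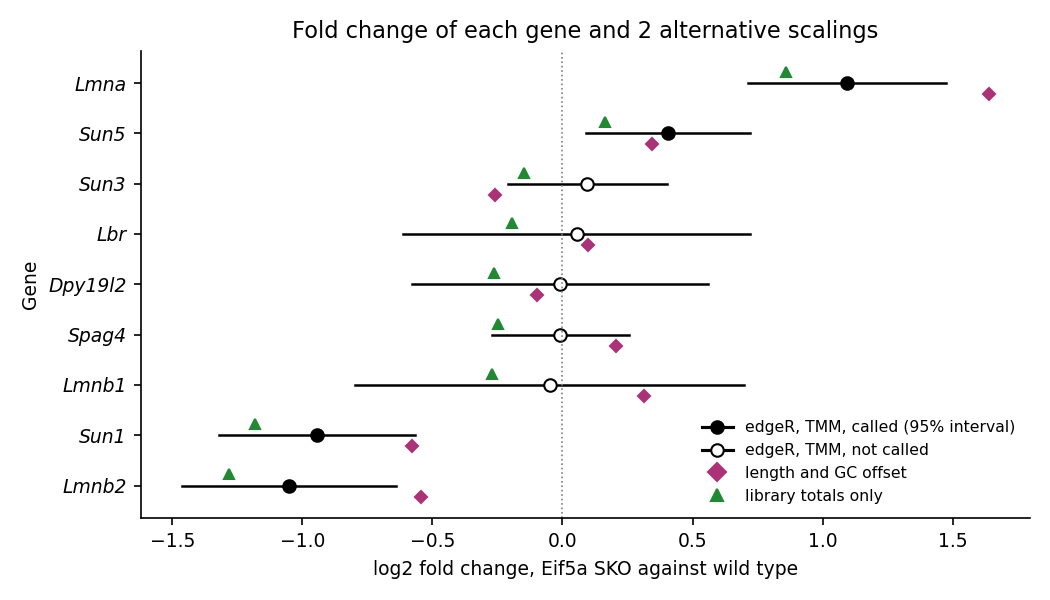
Log2 fold change of each gene, SKO against wild type, as circles with 95% intervals from edgeR (filled where called), beside the values with a length and GC offset (diamonds) and with library totals alone (triangles). Lmna lies on the positive side and Lmnb2 and Sun1 on the negative side under all 3 scalings, and Sun3, Spag4, Lmnb1 and Lbr change sign between them.

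By level per length in wild type the order was Spag4 at 275 ± 14.0 CPM per kilobase, Sun5 at 241 ± 14.9, Sun3 at 131 ± 8.17, Dpy19l2 at 123 ± 18.5, Lmnb2 at 33.2 ± 1.42, Sun1 at 14.8 ± 2.83, Lmna at 3.22 ± 0.301, Lmnb1 at 1.21 ± 0.373 and Lbr at 0.829 ± 0.165. The libraries of Sun3 and Dpy19l2 overlapped, as did those of Lmnb1 and Lbr, and other neighbours were separate. In SKO Sun5 came first at 319 ± 48.1 CPM per kilobase, overlapping Spag4 at 274 ± 16.7, and Sun1 at 7.71 ± 0.671 overlapped Lmna at 6.88 ± 0.977. These levels use the transcript with the longest coding sequence. Over the union of annotated exons the wild-type level of Spag4 was 84.0 CPM per kilobase, below Sun5 at 226, so the top of the order depends on the transcript taken.

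Fold change differed with transcript length across the table, but not steadily. The median log2 fold change was 0.59 for autosomal coding genes of 114 to 1194 bases and -0.035 for those of 5614 bases or more. Autosomal coding genes of 3332 to 4179 bases, among them Lmnb2, Sun1, Dpy19l2 and Lbr, had a median log2 fold change of -0.26, and those of 2715 to 3331 bases, among them Lmna and Lmnb1, -0.27. Those of 1195 to 1698 bases, among them Spag4, had 0.13. With the offset for length and GC content together, the log2 fold change went from -1.05 to -0.54 for Lmnb2, from -0.94 to -0.58 for Sun1 and from 1.09 to 1.64 for Lmna. The part of transcript length apart from GC content in the changes of Lmna and the other members was not tested.

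The pattern of Lmna, the member of lowest adjusted p, was nearest to that of Anapc16, a subunit gene of the anaphase-promoting complex, and of the RNA-binding protein genes Hnrnpa2b1 and Lsm12. Pearson's r over the 6 libraries was 0.997, 0.994 and 0.994, a description among 7697 genes in which the difference between the groups sets most of the likeness. Hnrnpa2b1 went from 73.0 ± 2.98 to 146.3 ± 14.6 CPM.

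Of 29 other genes of the inner membrane and lamina tested (30 listed), 3 were higher and 7 lower, beside 21.2% and 20.9% of all tested genes, with a median log2 fold change of -0.24 against 0.012 for all genes. Tmpo, which encodes lamina-associated LAP2 proteins, fell from 45.9 ± 2.16 to 18.7 ± 3.29 CPM, by -1.29 ± 0.17 on the log2 scale (edgeR adjusted p = 0.00033). Lmntd2, a gene with a lamin tail domain, fell from 147.9 ± 6.36 to 59.6 ± 15.1 CPM. Prr14, which encodes a tether of heterochromatin to the lamina, fell from 21.5 ± 0.95 to 7.27 ± 3.13 CPM. The genes that rose were Emd on the X chromosome, from 6.20 ± 0.11 to 17.0 ± 4.31 CPM, which encodes the inner membrane protein emerin, Nemp1, from 124.6 ± 2.89 to 215.2 ± 22.8 CPM, and Fnta, a subunit gene of the enzyme that farnesylates lamins, from 151.7 ± 7.23 to 221.5 ± 14.4 CPM. Fnta lost its call under library totals alone (log2 fold change 0.31, edgeR adjusted p = 0.0543), and the length and GC offset turned the counts to 5 higher and 4 lower.

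Of 13 further LINC, telomere attachment and DPY19L genes tested (16 listed), 1 was higher and 4 lower, with a median of 0.14. Over all tested genes 21.2% were higher and 20.9% lower. Ccdc155, the gene of the meiotic KASH protein KASH5, which joins SUN1 to dynein, fell from 44.7 ± 6.62 to 16.5 ± 4.03 CPM, by -1.44 ± 0.20 on the log2 scale (edgeR adjusted p = 0.000525). Terb1, which ties telomeres to that complex, fell from 28.6 ± 0.98 to 15.8 ± 3.42 CPM. The other telomere attachment genes of the list were not called, with log2 fold changes of -0.74 for Majin, 0.18 for Terb2, 0.31 for Spdya and 0.14 for Cdk2. Spermatocyte markers as a list had 2 of 12 higher and 3 lower and summed to 1360 to 1400 CPM in SKO and 1450 to 1560 CPM in wild type, and their part in the falls of Ccdc155 and Terb1 was not tested. Dpy19l3, a paralog of Dpy19l2, fell from 6.57 ± 0.65 to 1.53 ± 0.34 CPM. Fam209, which encodes a partner of DPY19L2 in the acrosome-facing membrane, rose from 504.9 ± 26.9 to 1007 ± 212 CPM, by 1.00 ± 0.16 on the log2 scale (edgeR adjusted p = 0.00102), while Dpy19l2 did not pass the test. The Fam209 transcript is 698 bases, and autosomal coding genes of 114 to 1194 bases had a median log2 fold change of 0.59. With the length and GC offset Fam209 rose by 0.70 (edgeR adjusted p = 0.00139). The gene of nesprin-3, Syne3, named after its values were seen, was at 45 to 67 counts in wild type and 6 to 17 in SKO, and its fall of -2.10 ± 0.55 on the log2 scale (edgeR adjusted p = 0.0127) lost its call without wild-type replicate 2 (-1.94, edgeR adjusted p = 0.0598) and with the replicate block and length and GC offset (-1.63, edgeR adjusted p = 0.0675).

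Genes of the head-tail junction, where SUN5 works, had 5 of 17 higher and 1 lower, with a median of 0.19. The shares over all tested genes were 21.2% higher and 20.9% lower. Ccdc113 rose from 452.9 ± 30.5 to 744.0 ± 43.1 CPM, Oaz3, the testis antizyme gene, from 559.0 ± 11.8 to 872.0 ± 80.7 CPM, and the centrosome gene Cep112 from 234.4 ± 19.7 to 370.4 ± 34.9 CPM. Spata20 fell from 648.6 ± 76.9 to 387.2 ± 101 CPM. That call ended with the length and GC offset (log2 fold change -0.28, edgeR adjusted p = 0.241). It also ended with the replicate block and that offset (-0.32, edgeR adjusted p = 0.204) and without wild-type replicate 2. Markers of elongating spermatids had 6 of 10 higher and 0 lower, beside 21.2% and 20.9% of all tested genes. They summed to 4120 to 4850 CPM in SKO and 3050 to 3250 CPM in wild type. Oaz3 and Odf1 are in both lists and were called higher, and the part of elongating spermatids in these rises was not tested. Acrosome genes had 4 of 17 higher and 0 lower, beside 21.2% and 20.9% of all tested genes, with a median of 0.23. With edgeR at an unadjusted p under 0.05, and with DESeq2 and limma-voom, 0 were also lower. The count of higher genes lies near the share over all genes and is no result about the list as a group. X-linked Actrt1, an actin-related gene of the perinuclear theca, rose from 54.5 ± 5.14 to 202.4 ± 47.3 CPM. Spaca1, for an acrosomal membrane protein, rose from 792.4 ± 66.4 to 1507 ± 112 CPM, and Zpbp, for a zona-binding protein of the acrosome, from 1186 ± 86.1 to 1900 ± 248 CPM. Spaca1 is also a round spermatid marker, and 7 of those 12 markers were higher and 2 lower. The part of the cell mix in these rises was not tested. Under library totals alone the head-tail genes were 3 higher and 3 lower and the acrosome genes had 5 lower. Without SKO replicate 3 the head-tail genes had 8 higher and the acrosome genes 7 higher and 1 lower.

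**Figure D5:**
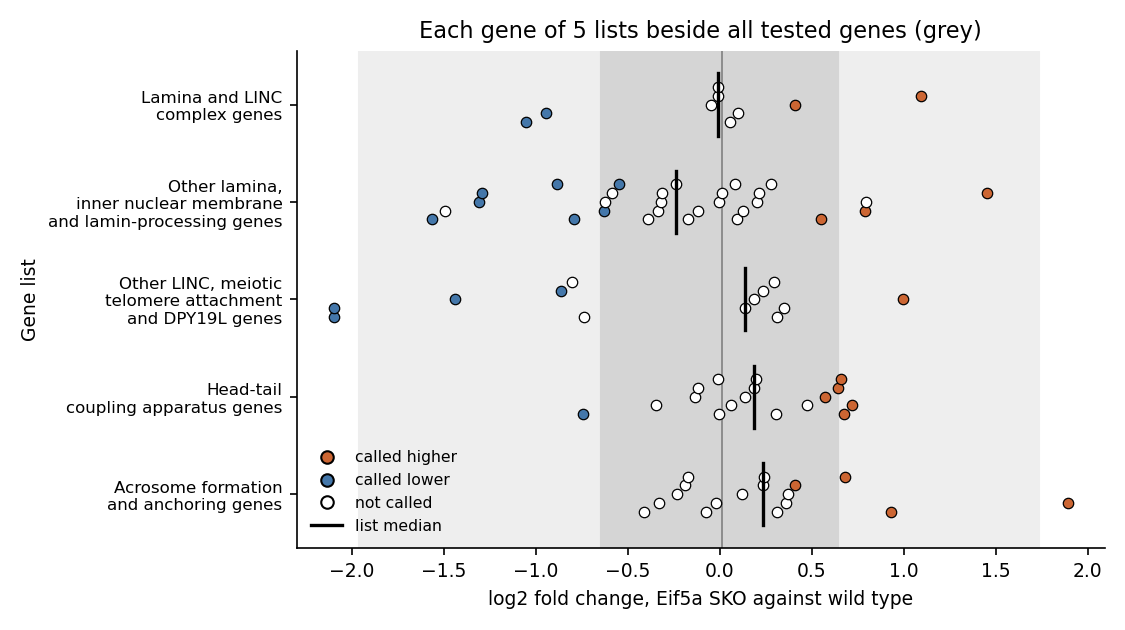
Log2 fold change of every tested gene in the lamina and LINC list and the 4 other lists, 1 circle per gene, orange where called higher, blue where called lower and white where not called, with a bar at each list's median. The dark grey band runs from percentile 25 to 75 and the light band from 5 to 95 of all tested genes, and the list medians run from -0.24 to 0.23, all inside the dark band.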

How the data were processed

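The authors deposited raw counts per gene for 6 Smart-seq2 libraries of sorted round spermatids, 3 of them Eif5a SKO and 3 wild type. The submitters' processing notes name FastQC, Trim Galore 0.6.4, HISAT2 2.0.5, featureCounts 1.5.0-p3 and GRCm38. Not given in the sources used here were the annotation release, the strand setting and how multimapping reads were counted. The reads carried no molecular identifiers that the labels name, so counts are not independent molecules.

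Counts as deposited were fitted with edgeR 4.0.16 (R 4.3.3, TMM scaling, filterByExpr, quasi-likelihood test, Benjamini-Hochberg adjustment over 19776 genes; 2994 rows fell under the filter), in 1 fit of both groups without covariates. The fits were tested on simulated data. SE is the log2 fold change over the root of F. Genes were matched by symbol to GENCODE M21 for position, length and GC content (22023 of 22770, 96.7%). Promoter windows came from RefSeq (GRCm38.p6). Alternatives were DESeq2 1.42.0, limma-voom (limma 3.58.1), other scalings and filters, a loess offset for length and GC content, a block of replicate numbers, a stricter threshold and leaving out each library.

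The genes, the other gene lists and the markers were chosen with earlier results of these data known, and the within-family ratios after their values were seen. Named in the text were all 9 members, up to 3 called genes per direction of lowest adjusted p in each other list, and the 3 genes most like the member of lowest adjusted p. Names outside that rule are said to be so, or are Eif5a, overlapping genes, markers or the uncalled Majin, Terb2, Spdya and Cdk2.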

Additional observations from a re-analysis of the deposited data

How the results depend on the processing

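Lmna, Lmnb2 and Sun1 kept their direction and call under all 16 alternatives, with log2 fold changes of 0.86 to 1.64, -1.28 to -0.54 and -1.18 to -0.57. Members lower in SKO numbered 2 throughout. Members higher went from 2 to 1, through Sun5, under library totals, the length and GC offset, the replicate block alone or with that offset, and an adjusted p under 0.01, and were 1 to 2 when a library was left out. Genes not called changed sign. With the length and GC offset, alone and with the replicate block, Lmnb1 went to 0.31 and 0.30, Sun3 to -0.26 and -0.26, and Spag4 to 0.20 and 0.20. Library totals turned Lbr to -0.20 and Sun3 to -0.15, upper quartile factors Spag4 to 0.026 and Dpy19l2 to 0.021, and the filter of 5 CPM Spag4 to 0.018 and Dpy19l2 to 0.012. That filter left Lmnb1 and Lbr without a value and lowered the count of all genes called lower from 4127 to 2742. Leaving out a library gave ranges of -0.45 to 0.17 for Lmnb1, -0.26 to 0.23 for Lbr, -0.017 to 0.16 for Sun3, -0.079 to 0.03 for Spag4 and -0.21 to 0.23 for Dpy19l2.

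In the list of inner membrane genes the count of higher genes went from 3 to 5 with the length and GC offset, and the count of lower genes from 7 to 11 under library totals and 4 with the offset. Among other LINC genes 2 were higher with the offset, and 1 to 2 when a library was left out. Head-tail genes had 3 higher and 3 lower under library totals, 0 lower with the offset and with the replicate block and offset, and 4 to 8 higher and 0 to 1 lower when a library was left out. Acrosome genes had 5 lower under library totals, and 3 to 7 higher and 0 to 1 lower when a library was left out. Over the union of exons the rise of Lmna in the summed lamin level was 15.2 percentage points and the fall of Lmnb2 17.5, against 20.3 and 22.0 with the transcript of longest coding sequence. The cause of these moves was not tested. Libraries with the same replicate number did not deviate together (correlations of -0.02, -0.05 and -0.07). With 3 libraries a group these correlations cannot exclude that the numbers paired them. With the replicate block 7218 genes were called against 8312 without it, and no library correlated best with its own number. Depth limits Lmnb1 and Lbr most, at 105 to 258 counts a library.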
